A study of Elaeis guineensis with 18 samples.

Results

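The genes described here are 10 chaperone and protein refolding genes of oil palm (Elaeis guineensis), out of 30606 genes with read counts. They are the genes that the study names under HSP90 binding, protein refolding, unfolded protein binding, chaperone binding or response to heat, or draws as chaperones in its scheme of the stress response. The deposited tables number them 105041698 and 105041894 (HSP90 binding), 105059108 and 105042992 (protein refolding), 105059479, 105034311 and 105053974 (unfolded protein binding), 105048385 (chaperone binding), and 105040848 and 105038869 (the scheme); the prefix LOC is added below. They were chosen by measured values: 8 were listed because they were differentially expressed genes (DEGs) in heat, some of them also in drought, waterlogging or cold, and LOC105040848 and LOC105038869 because they were DEGs in all 5 stresses. The heat values of every member are therefore given as a description with no test. So are the values in any other stress whose list, among those used here, held the gene. Leaves of wild-type Deli Dura seedlings were sequenced in 18 libraries, 3 per group, each from the third leaf of 3 pooled seedlings. Drought seedlings received 0 mL of water at 28°C, salinity seedlings 200 mL of 0.2 M NaCl at 28°C, waterlogged seedlings (labelled flood) stood in water 1 inch above the soil at 28°C, heat seedlings received 200 mL of water at 40°C and cold seedlings 200 mL at 10°C. Control seedlings received 200 mL of water at 28°C, and all groups were treated for the same number of weeks in a greenhouse.

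Molecular chaperones bind proteins that are newly made or partly unfolded, keep them from aggregating and, with ATP, help them regain their shape. HSP90 works with co-chaperones that bind it and bring it client proteins, and proteins that bind a chaperone without folding anything themselves adjust its cycle. In plants the genes of this system are known for induction by heat shock transcription factors, and many of them also respond to water shortage and salt. No product name was used for the 10 members, and the role stated for each is the functional term or class under which the study lists it.

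The libraries held 14839345 to 22126971 counts on genes, and 24723 to 26402 genes had a read. Between libraries of 1 group, Spearman's correlation over genes lay between 0.969 and 0.989, and between libraries of different groups it lay between 0.938 and 0.986. As a check of the tissue, all 21 light-harvesting antenna genes of the study's tables had reads in every library and took 2.42% to 13.9% of the summed FPKM. In cold this share was 2.42% to 3.03%, against 3.95% to 7.52% in control. Scaling factors by the trimmed mean of M values (TMM), a method that centres most genes, were 1.352 to 1.359 in cold and 0.784 to 0.936 in drought, salinity and waterlogging, against 1.086 to 1.14 in control. With library totals in place of TMM, the median log2 fold change of all genes moved to 0.31 in cold and to -0.33, -0.36 and -0.46 in drought, salinity and waterlogging, each against control. In the accounts of single genes, values with library totals are given for directions, group orders and thresholds that depend on this choice. Not every such case is listed. In whole leaves, fewer cells of a type and less RNA per cell cannot be told apart.

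All 10 members passed the filter on low counts, and all 10 are protein-coding genes with no overlapping gene in the NCBI annotation of assembly EG11. Levels are given below as CPM, a gene's counts relative to the TMM-scaled library total, for replicates 1, 2 and 3 of a group. A gene was called a DEG when it changed 2-fold or more with an adjusted p below 0.05 in 1 edgeR quasi-likelihood fit of all libraries. Of all 23830 genes tested, 20.1% were DEGs in heat, 17.7% in drought, 15.5% in salinity, 19.6% in waterlogging and 25% in cold. In heat, 8 members were higher and 2 lower than in control (11.5% and 8.66% of all genes), which the way they were chosen fixes. Leaving aside the contrasts that chose them, 2 of 6 members rose in drought, where 10.7% of all genes rose, 4 of 8 in salinity (10.5% of all genes) and 3 of 7 in waterlogging (12% of all genes). The 4 in salinity include LOC105041894 and LOC105048385, listed under chaperone binding. The study also has a salinity entry of that name, left out here because its gene list appears to belong to another term. Whether salinity served to choose these genes is therefore not known. In cold none of 7 rose and 1 fell, and over all 10 members 2 rose and 2 fell, where 13.1% of all genes rose and 12% fell. Leaving out the members that a stress chose takes out genes called there. The counts of the rest are thus no rates to set against all genes. LOC105059108 is also of a term listed in cold without being held by the cold list. All of these stress contrasts share the control libraries with the heat contrast.

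**Figure D1:**
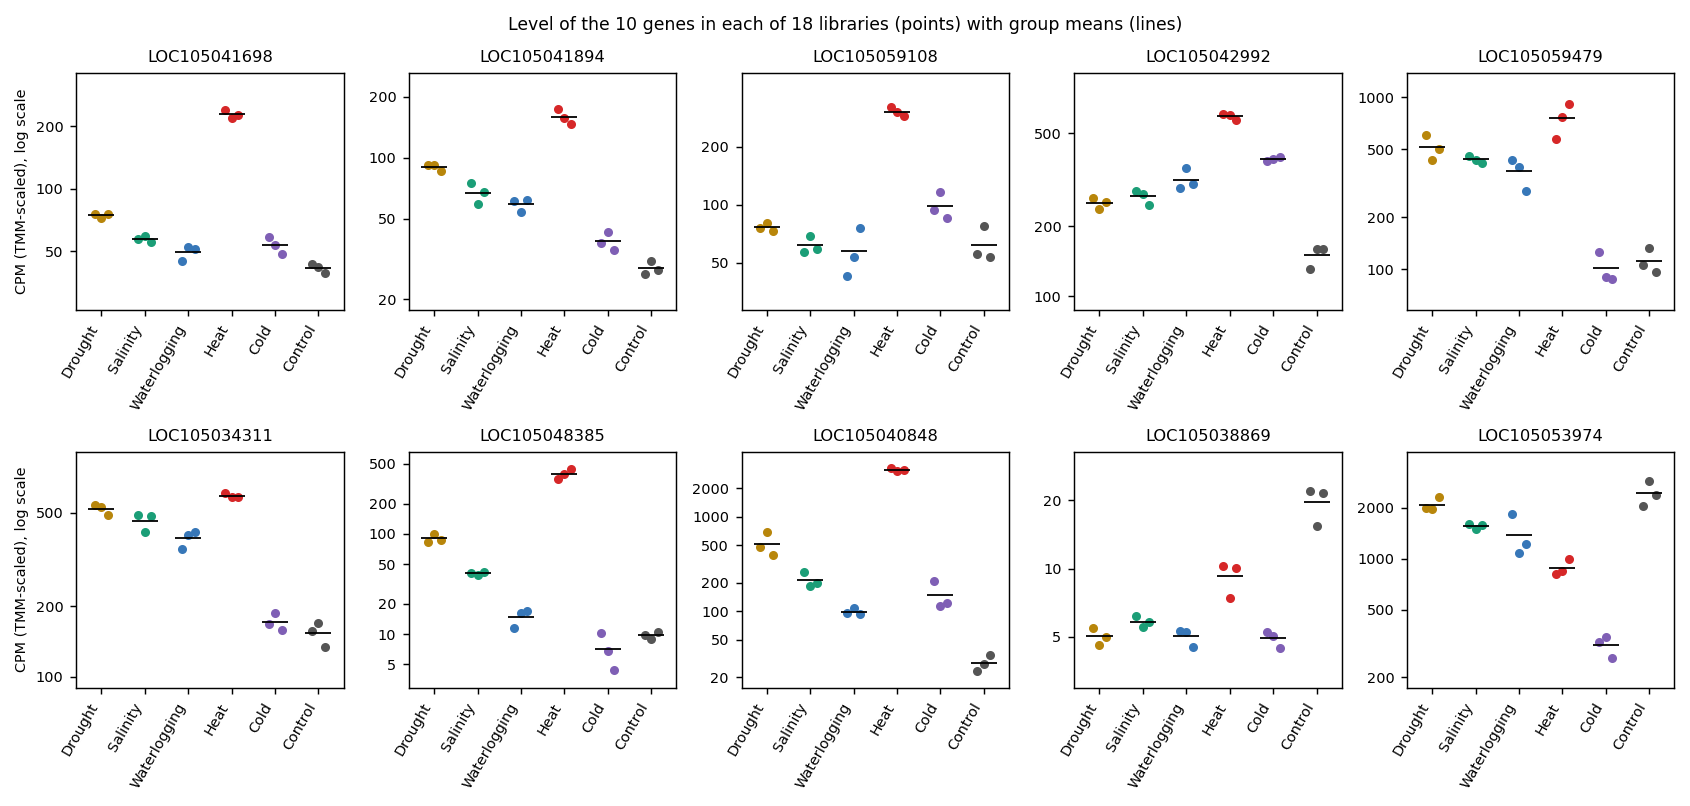
Level of each of the 10 genes as CPM on the TMM-scaled total (log scale) by group, with 1 point per library and a line at the group mean (n = 3). Of the 8 genes above control in heat, all have their highest mean in heat, while LOC105038869 and LOC105053974 have their highest mean in control.

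The HSP90 binding genes of the group, LOC105041698 and LOC105041894, were highest in heat and had every library of every stress above control on the TMM scale. LOC105041698 had 239.7, 219 and 225 CPM in heat, 75.1, 72.3 and 75.5 CPM in drought, 57.0, 59.1 and 55.6 CPM in salinity, 58.2, 53.6 and 48.6 CPM in cold and 44.6, 52.4 and 51.1 CPM in waterlogging, against 43.5, 42.1 and 39.2 CPM in control. Heat stood apart from all other groups, drought stood apart below it, and the ranges of salinity and cold, and of cold and waterlogging, overlapped. The log2 fold change was 2.45 in heat (described only). In drought it was 0.84 ± 0.09 (SE; adjusted p = 2.61e-06), in salinity 0.46 ± 0.09 (adjusted p = 0.000584), in cold 0.36 ± 0.09 (adjusted p = 0.00232) and in waterlogging 0.25 ± 0.09 (adjusted p = 0.0289). None of the 4 tested changes reached 2-fold. With library totals the salinity value was 0.14 (adjusted p = 0.299) and the waterlogging value -0.16 (adjusted p = 0.209), and cold stood above drought by 0.10 where the TMM value was -0.47. Cold then also stood above salinity by 0.52 (adjusted p = 0.000547), where TMM gave -0.10. It stood above waterlogging by 0.82 (adjusted p = 7.51e-06), where TMM gave 0.12. The salinity and waterlogging differences from control, and the place of cold among the stresses, thus do not hold under both scalings.

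LOC105041894, which the study also lists under chaperone binding, had 174, 158 and 147 CPM in heat, 91.6, 92.3 and 85.5 CPM in drought, 74.7, 59.1 and 67.7 CPM in salinity, 61.4, 54.1 and 62.2 CPM in waterlogging and 37.9, 42.9 and 35.2 CPM in cold, against 26.7, 31.0 and 27.8 CPM in control. On the TMM scale the order was heat, drought, salinity, waterlogging, cold and control, and of these neighbours only salinity and waterlogging overlapped. With library totals cold stood above waterlogging by 0.09 where the TMM value was -0.61. Against salinity the cold value was then -0.17, where TMM gave -0.80. The described log2 fold changes were 2.49 in heat, 1.66 in drought and 1.06 in waterlogging, the last of which was 0.65 with library totals. It rose in salinity by 1.24 ± 0.11 (adjusted p = 8.91e-07), a change that stayed past the p threshold but not past 2-fold with library totals (0.91). Whether salinity served to choose this gene is not known, so this may be no independent test. In cold the difference was 0.44 ± 0.11 (adjusted p = 0.00271), under 2-fold.

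LOC105048385, a chaperone binding gene, overlapped its control range in cold, and differed most widely between stresses among the genes not chosen in all 5 of them. It had 353, 398 and 442 CPM in heat, 83.3, 99.9 and 86.8 CPM in drought, 40.4, 39.3 and 42.1 CPM in salinity, 11.5, 16.4 and 17.1 CPM in waterlogging and 10.3, 6.78 and 4.36 CPM in cold, against 9.81, 9.0 and 10.5 CPM in control. On this scale heat, drought, salinity and waterlogging formed 4 steps with no overlap between them, all above control, and only cold overlapped control. The described log2 fold changes were 5.34 in heat and 3.2 in drought. The gene rose in salinity by 2.05 ± 0.23 (adjusted p = 6.4e-06). Whether salinity served to choose this gene is not known. Its salinity values, set against control or another stress, may thus be no independent test. Waterlogging differed from control by 0.61 ± 0.23 (adjusted p = 0.0361), under 2-fold, and cold by -0.45 ± 0.23 (adjusted p = 0.105). With library totals the waterlogging value was 0.21 (adjusted p = 0.47), and its libraries, at 2.23 to 3.73 FPKM, overlapped the control libraries at 2.43 to 2.85 FPKM. In the direct comparison of waterlogging with salinity it was lower, with a log2 fold change of -1.44 ± 0.22 (adjusted p = 0.00633), where 0.365% of all genes were lower; in a fit of these groups alone the adjusted p was 0.0742.

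A pair of unfolded protein binding genes, LOC105059479 and LOC105034311, rose in drought, salinity and waterlogging, and on the TMM scale their cold libraries overlapped control. Proteins under this term hold on to stretches of polypeptide that a folded protein would bury. LOC105059479 had 572, 772 and 919 CPM in heat, 600.4, 434 and 501 CPM in drought, 455, 433 and 417 CPM in salinity, 434, 394 and 284 CPM in waterlogging and 126, 89.8 and 87.3 CPM in cold, against 106, 133 and 96.5 CPM in control. The groups fell into an upper block of heat, drought, salinity and waterlogging, in which each group overlapped the next, and a lower block of cold and control. It rose by 2.19 ± 0.22 in drought (adjusted p = 1.59e-06), 1.96 ± 0.21 in salinity (adjusted p = 5.98e-06) and 1.73 ± 0.21 in waterlogging (adjusted p = 1.26e-05), beside a described 2.75 in heat. In cold the log2 fold change was -0.15 ± 0.21 (adjusted p = 0.565), and 0.15 with library totals.

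LOC105034311, listed under both unfolded protein binding and response to heat, had 609, 587 and 583 CPM in heat, 541, 528 and 492 CPM in drought, 492, 414 and 486 CPM in salinity, 352, 402 and 414 CPM in waterlogging and 168, 187 and 159 CPM in cold, against 157, 169 and 134 CPM in control. Every library of heat and of the 3 water and salt stresses was at least 352 CPM, and no library of cold or control passed 187 CPM. Heat exceeded drought by a log2 value of only 0.19, the narrowest gap between heat and drought among the 8 genes raised in heat. It rose by 1.76 ± 0.12 in drought (adjusted p = 5.27e-08), 1.60 ± 0.12 in salinity (adjusted p = 2.33e-07) and 1.34 ± 0.12 in waterlogging (adjusted p = 7.11e-07), beside a described 1.95 in heat. With library totals the waterlogging change was 0.94, under 2-fold. The cold value was 0.16 ± 0.12 (adjusted p = 0.248), but 0.45 (adjusted p = 0.00455) with library totals, under 2-fold in both.

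The protein refolding genes, LOC105059108 and LOC105042992, had cold as their second highest group. The term covers the return of a denatured protein to its working shape. LOC105059108 had 319, 300.3 and 288 CPM in heat, 93.8, 116 and 85.8 CPM in cold, 75.6, 80.5 and 72.8 CPM in drought, 57.3, 68.9 and 59.2 CPM in salinity and 43.0, 53.4 and 76.1 CPM in waterlogging, against 55.7, 77.6 and 53.5 CPM in control. Heat stood far above the rest and cold was above the other groups in every library, while drought, salinity and waterlogging overlapped control. The cold change was 0.66 ± 0.19 (adjusted p = 0.00669), under 2-fold, beside a described 2.28 in heat. The differences were 0.29 ± 0.19 in drought (adjusted p = 0.218), -0.01 ± 0.19 in salinity (adjusted p = 0.97) and -0.12 ± 0.19 in waterlogging (adjusted p = 0.636); the salinity value was 0.01 with the size factors of DESeq2, and the waterlogging value -0.51 (adjusted p = 0.0456) with library totals. Without replicate 3 of waterlogging, the difference of cold from waterlogging was 1.03 in place of 0.78 and passed 2-fold.

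LOC105042992 had 605, 603 and 569 CPM in heat, 381, 389 and 395 CPM in cold, 292, 354 and 302 CPM in waterlogging, 282, 276 and 247 CPM in salinity and 264, 236 and 254 CPM in drought, against 131, 159 and 159.9 CPM in control. Every stress library was above every control library, and drought was the lowest of the stresses, though its range overlapped that of salinity. The described log2 fold changes were 1.98 in heat and 1.37 in cold. The gene rose in waterlogging by 1.07 ± 0.11 (adjusted p = 2.23e-06), but by 0.99 without replicate 1 of control or without replicate 2 of waterlogging and by 0.67 with library totals, all under 2-fold. It differed from control by 0.84 ± 0.11 in salinity (adjusted p = 2.42e-05) and 0.74 ± 0.11 in drought (adjusted p = 6.28e-05), both under 2-fold.

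**Figure D2:**
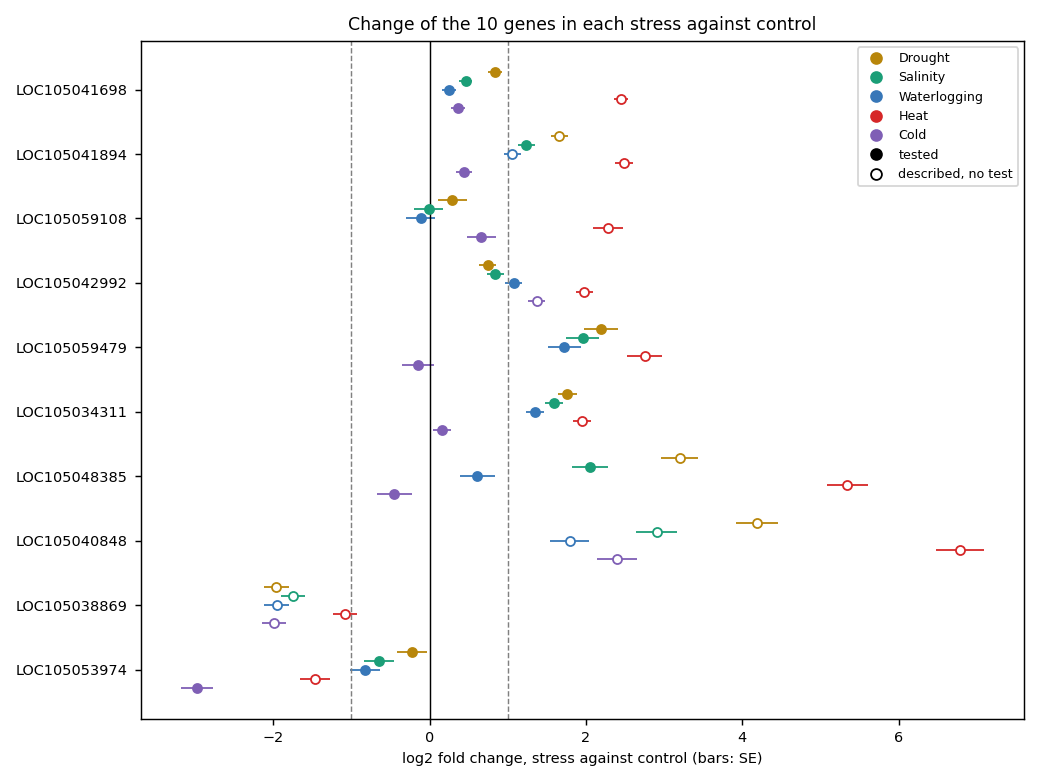
Log2 fold change of the 10 genes (rows) in each stress against control, with the SE as bars and dashed lines at 2-fold; filled points were tested and open points are described only because that contrast chose the gene. LOC105059479 and LOC105034311 lie past 2-fold in drought, salinity and waterlogging and near 0 in cold, and LOC105053974 has its lowest value, -2.98, in cold. Whether salinity chose LOC105041894 and LOC105048385 is not known, though their salinity points are filled.

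The scheme's raised chaperone gene, LOC105040848, is described only, since all 5 stresses chose it. It had 3251, 3068 and 3075 CPM in heat, 478, 683 and 391 CPM in drought, 257, 184 and 198 CPM in salinity, 211, 114 and 123 CPM in cold and 95.6, 107 and 92.9 CPM in waterlogging, against 23.1, 27.9 and 34.2 CPM in control. No stress library overlapped control, and among neighbouring groups only salinity and cold overlapped. The mean level in heat was 110.4 times that in control, the widest ratio between groups among the 10 genes. The log2 fold changes were 6.79 in heat, 4.19 in drought, 2.91 in salinity, 2.39 in cold and 1.80 in waterlogging. The order of cold and salinity turned round with library totals, where cold stood above salinity by 0.12 in place of -0.51.

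The scheme's lowered gene, LOC105038869, is also described only. It had 10.2, 7.44 and 10.1 CPM in heat, 6.21, 5.52 and 5.81 CPM in salinity, 5.33, 5.28 and 4.52 CPM in waterlogging, 5.48, 4.62 and 4.98 CPM in drought and 5.29, 5.04 and 4.47 CPM in cold, against 21.9, 15.5 and 21.5 CPM in control. All stress libraries lay under control, heat was the highest of the stresses, and on the TMM scale drought, waterlogging and cold overlapped each other. With library totals cold stood above drought by 0.54 where the TMM value was -0.03. The log2 fold changes were -1.08 in heat, -1.75 in salinity, -1.96 in drought, -1.96 in waterlogging and -1.99 in cold. The heat value was the closest of the 10 genes to the 2-fold threshold of the lists. It was -0.998 without replicate 1 of control and -0.95 without replicate 2 of heat, both under 2-fold.

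LOC105053974, listed under response to heat and unfolded protein binding, was the most abundant member in control and fell in cold. It had 324, 346 and 259 CPM in cold, 810.2, 842 and 992 CPM in heat, 1832, 1085 and 1213 CPM in waterlogging, 1604, 1489.8 and 1573 CPM in salinity and 2002, 1952 and 2299.6 CPM in drought, against 2055, 2859 and 2385 CPM in control. Cold was the lowest group with no overlap, heat came next above it, and only drought overlapped control. The log2 fold change in cold was -2.98 ± 0.21 (adjusted p = 3.15e-08). In heat the described value was -1.47. The change in waterlogging was -0.82 ± 0.19 (adjusted p = 0.0027), under 2-fold, but it was called without replicate 1 of waterlogging (-1.08) and with library totals (-1.24). Salinity differed by -0.65 ± 0.19 (adjusted p = 0.0141) and drought by -0.22 ± 0.19 (adjusted p = 0.374), which was -0.50 (adjusted p = 0.0273) with library totals.

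Direct comparisons among drought, salinity, waterlogging and cold set neither heat nor control levels against another group, though the heat and control libraries entered the shared fit, its scaling and its filter. Over the 6 pairs, 37 gene comparisons had not served to choose a gene by the lists used. With TMM the gene was lower in the first stress of the pair in 12 of them, and in none was it higher. That stress was cold in 11 and waterlogging, set against salinity, in 1. The 11 came from LOC105059479, LOC105034311, LOC105053974 and LOC105048385 alone, all through the same cold libraries. With library totals some of these calls were lost and LOC105059108 was called higher in cold, as given below. Among the described comparisons, LOC105042992 in cold was then past 2-fold above drought (1.20), salinity (1.152) and waterlogging (1.001). LOC105040848 was past 2-fold above waterlogging in cold (1.304), and LOC105041894 was no longer 2-fold below drought in cold (-0.65). Cold against drought called 3 of 5 tested members lower, cold against salinity 4 of 7 and cold against waterlogging 4 of 6. Over all 10 members, described ones included, 6, 4 and 4 were lower. Of all genes, 14.2%, 13.3% and 13.5% were lower. Leaving out the described members changes the counts, so they are no rates to set against all genes. LOC105059479 had a log2 fold change in cold of -2.34 ± 0.22 against drought (adjusted p = 4.65e-07), -2.11 ± 0.22 against salinity (adjusted p = 1.47e-06) and -1.88 ± 0.21 against waterlogging (adjusted p = 3.78e-06). For LOC105034311 it was -1.60 ± 0.12 against drought (adjusted p = 5.24e-08), -1.44 ± 0.12 against salinity (adjusted p = 1.82e-07) and -1.18 ± 0.12 against waterlogging (adjusted p = 9.38e-07). With library totals the values against salinity and waterlogging were -0.81 and -0.48, under 2-fold.

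LOC105053974 had a log2 fold change in cold of -2.75 ± 0.21 against drought (adjusted p = 6.33e-08), -2.33 ± 0.20 against salinity (adjusted p = 3.33e-07) and -2.15 ± 0.20 against waterlogging (adjusted p = 6.01e-07). Cold was the lower group in each, with no overlap of libraries. For LOC105048385 the value of cold against salinity was -2.50 ± 0.23 (adjusted p = 5.67e-07). Whether salinity served to choose this gene is not known, which bears on each of its comparisons with salinity. Its difference between cold and waterlogging, -1.06 ± 0.23 (adjusted p = 0.00106), was under 2-fold without replicate 3 of cold (-0.81), replicate 2 of waterlogging (-0.99) or replicate 3 of waterlogging (-0.96), and with library totals (-0.37). Going the other way, LOC105059108 was above salinity in cold by 0.67 ± 0.19 (adjusted p = 0.00641) and above waterlogging by 0.78 ± 0.19 (adjusted p = 0.0024), both under 2-fold; with library totals these were 1.29 and 1.47, past it. Among drought, salinity and waterlogging, 19 comparisons were tested and that of LOC105048385 between waterlogging and salinity was the single call, where 2.77%, 7.02% and 0.621% of all genes differed between salinity and drought, waterlogging and drought, and waterlogging and salinity.

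**Figure D3:**
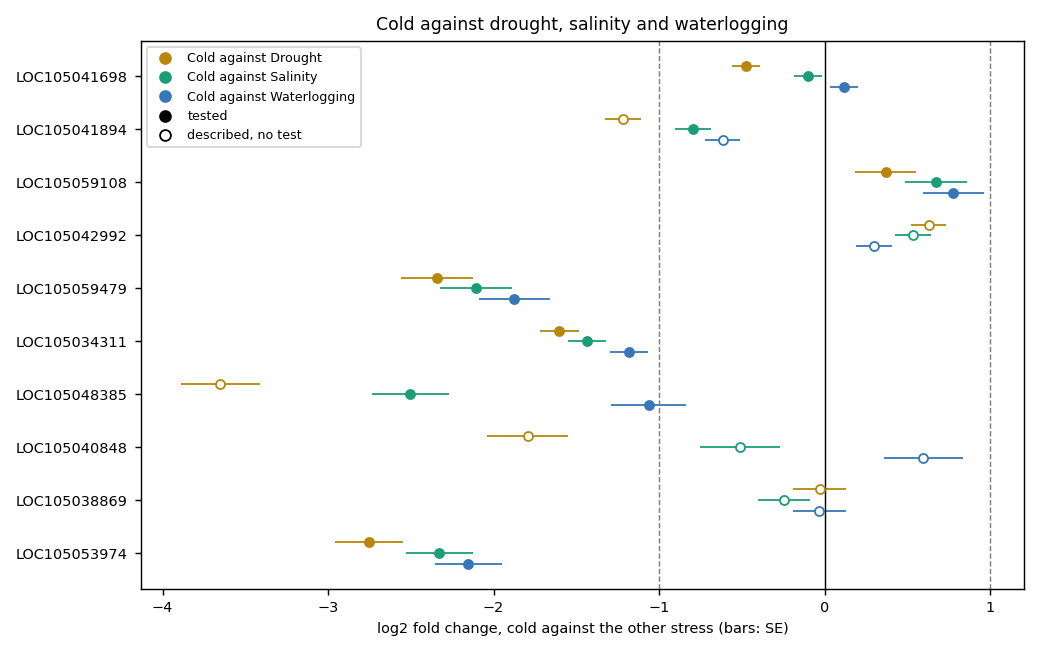
Log2 fold change of the 10 genes (rows) in cold against drought, salinity and waterlogging, with the SE as bars and dashed lines at 2-fold; filled points were tested and open points are described only. LOC105059479, LOC105034311 and LOC105053974 lie under -1 against all 3 stresses, and the refolding genes LOC105059108 and LOC105042992 lie above 0. Whether salinity chose LOC105041894 and LOC105048385 is not known, though their points against salinity are filled.

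Set against the other stresses, all 3 heat libraries were above all 3 of the other stress for 10 members in cold (30.8% of all genes), 9 in salinity (26.6%), 9 in waterlogging (24.1%) and 8 in drought (27.7%), all as description. The exceptions were LOC105053974, which was lower in heat than in drought, salinity and waterlogging, and LOC105059479, whose heat and drought libraries overlapped.

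Levels between genes were compared as FPKM, the deposited values that divide a gene's counts by its length and by the library total. In heat, LOC105040848 averaged 1046 ± 48.7 FPKM (SD, n = 3) and ranked 63 to 71 among all genes, against 10.5 ± 1.85 FPKM and rank 8691 to 11273 in control. LOC105053974 averaged 517 ± 82.4 FPKM in heat and 245 ± 36.0 FPKM in cold, against 1569 ± 227 FPKM in control, where it ranked 29 to 38. The next levels in heat were those of LOC105034311 with 345 ± 14 FPKM, LOC105059479 with 301 ± 81.8 FPKM and LOC105042992 with 273 ± 4.11 FPKM. The lowest member in heat was LOC105038869 with 7.48 ± 1.48 FPKM, against 17.5 ± 3.49 FPKM in control. LOC105048385 averaged 99.0 ± 15.3 FPKM in heat, against 2.69 ± 0.228 FPKM in control.

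The 10 genes together took 0.672% to 0.765% of a library's gene counts in heat and 0.163% to 0.192% in cold, against 0.300% to 0.383% in control. Which gene supplied most of these counts differed between groups. LOC105040848 held 42.4% to 46.8% of the members' counts in heat, against 0.791% to 1.15% in control. LOC105053974 held 11.7% to 13.7% of them in heat and 21.5% to 25.6% in cold, against 78.1% to 81.1% in control. The largest part in cold came from LOC105042992, with 381 to 395 CPM against 259 to 346 CPM for LOC105053974. In drought, salinity and waterlogging LOC105053974 held 43.0% to 57.7% of them.

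**Figure D4:**
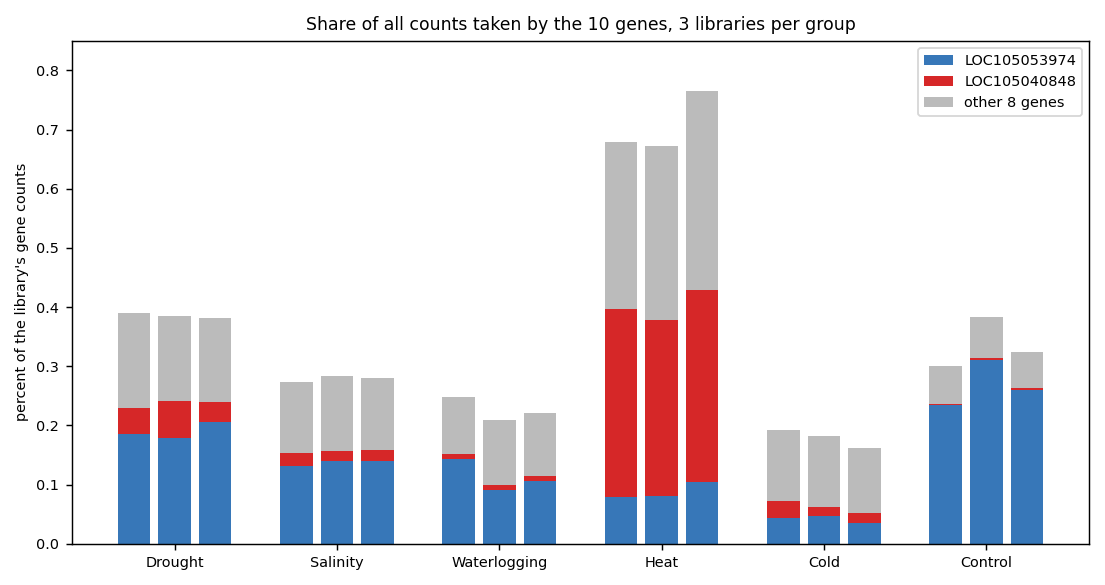
Percent of each library's gene counts taken by the 10 genes, stacked as LOC105053974, LOC105040848 and the other 8 genes, with 3 libraries per group. The heat libraries reach 0.672% to 0.765% with LOC105040848 as the main part, and the control libraries 0.300% to 0.383% with LOC105053974 as the main part.

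The other genes of the same terms were counted from the study's own lists, which it drew up on these libraries, so their directions are not independent evidence. Of all genes tested, 11.5% were higher in heat, 10.7% in drought, 10.5% in salinity, 12% in waterlogging and 13.1% in cold. Of the 9 other HSP90 binding genes, all 9 were higher in heat with a median log2 fold change of 2.13, 4 in drought, 3 in salinity, 1 in waterlogging and none in cold, where the median was 0.08. LOC105049249, under both HSP90 binding and chaperone binding, averaged 30.4 ± 1.45 CPM in heat (SD, n = 3), 13.1 ± 1.67 CPM in drought, 10.8 ± 1.56 CPM in waterlogging, 9.34 ± 1.37 CPM in salinity and 3.97 ± 0.644 CPM in cold, against 2.37 ± 0.285 CPM in control. LOC105045515, also under HSP90 binding, averaged 14.3 ± 2.33 CPM in heat and 0.820 ± 0.354 CPM in waterlogging, against 0.730 ± 0.348 CPM in control. Of the 17 other chaperone binding genes, 10 were higher in heat, 11 in salinity, 11 in waterlogging and 6 in drought; in cold 4 were higher and 1 lower. LOC105051022 of this list averaged 307 ± 38.2 CPM in heat and 29.2 ± 6.85 CPM in cold, against 22.4 ± 1.49 CPM in control. The lists for heat hold only genes that were DEGs there.

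Of the 23 other unfolded protein binding genes, 21 were higher and 2 lower in heat, 7 higher and 2 lower in drought, 7 higher and 1 lower in salinity, 6 higher and 1 lower in waterlogging, and 4 higher and 2 lower in cold. The cold counts of this list are near the shares of all genes, 13.1% higher and 12% lower. LOC105051365 of this list was a DEG in all 5 stresses and averaged 1652 ± 75.8 CPM in heat and 866 ± 68.1 CPM in cold, against 402 ± 27.8 CPM in control. LOC105038674 averaged 271 ± 25.0 CPM in heat and 8.45 ± 3.00 CPM in cold, against 1.62 ± 0.0975 CPM in control. The 10 other response to heat genes were all higher in heat, 6 in drought, 5 in salinity, 4 in waterlogging and 2 in cold. Those higher in cold were LOC105042707 and LOC105042708. LOC105042708 averaged 7008 ± 864 CPM in heat and 12.3 ± 7.11 CPM in cold, against 0.915 ± 0.0985 CPM in control. LOC105042707 averaged 7149 ± 761 CPM in heat and 144 ± 39.6 CPM in cold, against 12.6 ± 1.94 CPM in control.

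Protein refolding was the one term whose genes were listed in both temperature stresses. The study listed it for its enrichment among the heat and cold DEGs of these libraries. Its heat and cold counts and medians are thus tied to that choice and are description only. Of the 11 other refolding genes, 8 were higher in heat and 8 in cold, with median log2 fold changes of 1.54 and 1.45, while the median of all genes was 0.00 in heat and 0.02 in cold. In drought 2 were higher and 1 lower, and in salinity and waterlogging 1 each was higher; with library totals none was in salinity or waterlogging, and without replicate 2 of salinity or replicate 1 of control none was in salinity. That gene, LOC105043987, averaged 35.2 ± 2.46 CPM in cold and 16.1 ± 2.02 CPM in heat, against 5.54 ± 0.956 CPM in control. LOC105055575 averaged 3.29 ± 0.193 CPM in cold and 1.20 ± 0.442 CPM in heat, against 0.592 ± 0.239 CPM in control. LOC105032887, the one refolding gene that was lower in drought (-1.80), had a log2 fold change of 1.28 in cold and -0.06 in heat.

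**Figure D5:**
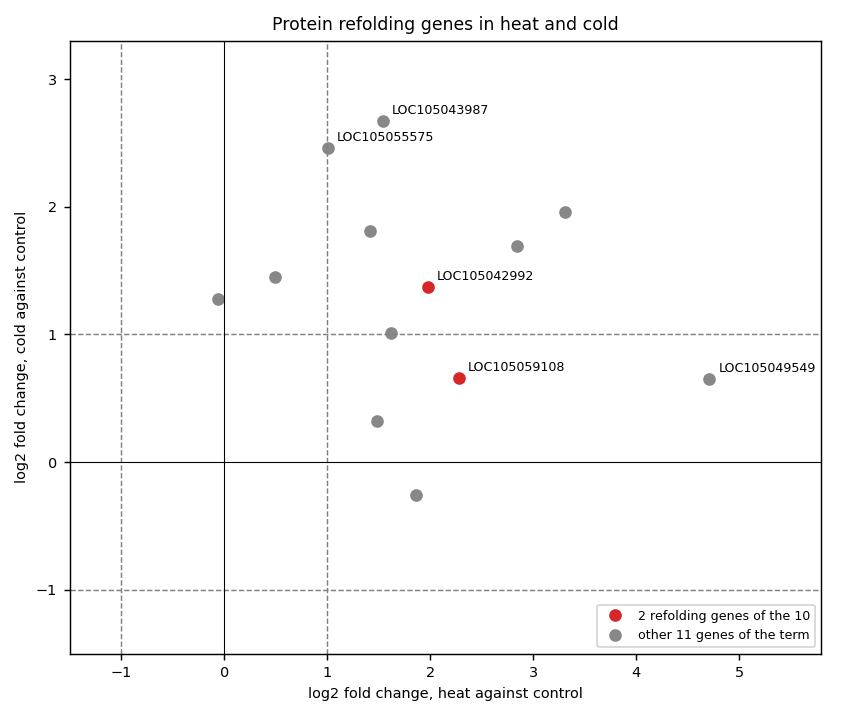
Log2 fold change in heat (x axis) and in cold (y axis), each against the same control libraries, of the 13 protein refolding genes, with dashed lines at 2-fold; red points are LOC105059108 and LOC105042992. Genes at the upper right are past 2-fold in both, and LOC105049549 has the largest heat value of the term, 4.71, with 0.65 in cold.

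Likeness of pattern was measured as Pearson's r of log2 CPM over the 18 libraries, which share groups, so the values are descriptions. Among the members LOC105059479 and LOC105034311 were the most alike (r = 0.964), and LOC105042992 and LOC105053974 the most opposed (r = -0.663). These same unfolded protein binding genes also had the same nearest genes outside the group, LOC105045696 (r = 0.961 and 0.980) and LOC105053390 (r = 0.961 and 0.974). The nearest gene to LOC105048385 was LOC105040761 (r = 0.988), another gene of the chaperone binding list, with 563 ± 57.8 CPM in heat and 16.9 ± 6.31 CPM in cold, against 30.7 ± 4.57 CPM in control. LOC105053974 was most like LOC105052951 (r = 0.989), which averaged 17.2 ± 0.625 CPM in cold, against 70.8 ± 4.10 CPM in control. LOC105040848 was most like LOC105047941 (r = 0.989), with 1028 ± 80.2 CPM in heat, against 12.6 ± 2.22 CPM in control.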

How the data were processed

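RNA from leaves was sequenced in 18 libraries, grouped by GEO's labels. Per the labels and the study's methods, the authors aligned reads with TopHat2 to an oil palm genome and counted them per gene with HTSeq; the deposited counts are whole numbers and not normalized. Neither the assembly version nor the strand setting of the counting is stated in these sources, and near-identical copies in gene families may share reads. The deposited FPKM values are these counts divided by a fixed gene length and the library total, with the recovered length deviating by at most 6.09e-09 between libraries. Of 29750 genes with an NCBI number, 25941 matched the RefSeq table of assembly EG11, used for biotype and neighbours only, and 856 are gene models added by the authors.

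Counts were analysed in R 4.3.3 with edgeR 4.0.16: filterByExpr (minimum count 10, minimum total 15) left 23830 genes, libraries were scaled by TMM, and 1 quasi-likelihood model was fitted, with a term per group (6 groups; residual degrees of freedom 12; common biological coefficient of variation 0.215). P-values are two-sided and adjusted by Benjamini-Hochberg over all genes within a contrast. The SE is the size of the log2 fold change divided by the square root of F. The replicates are labelled biological. Alternatives were another normalization (size factors of DESeq2), library totals, DESeq2 1.42.0, limma 3.58.1 on log2(FPKM + 0.1) and log2(FPKM + 1), no filter, adjusted p alone, a fit per contrast, a replicate block and leaving out each library. The fits were checked on simulated counts with known changes, placed in heat only, up and down alike, with the same spread for every gene. That check does not bear on the choice of scaling. The depth limits low genes most, as counting error is largest there.

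Named genes were all 10 members, the 2 genes of each list called in the most stresses (largest summed change), and the 2 genes closest to each member by Pearson's r (prior count 2), of which only some are printed; LOC105032887 and LOC105049549 were named after their values were seen. The members and lists were chosen with earlier results of these data known. Sequences were not used here.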

Additional observations from a re-analysis of the deposited data

How the results depend on the processing

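No called result turned to the opposite direction; of 110 single values, 10 had another sign with library totals and 1 with the size factors of DESeq2, none of them called under TMM. Without regard to fold, the adjusted p of 17 crossed 0.05 with library totals. Over 27 alternatives of these values (2970 in all), the call changed in 66 values, of which 45 came with library totals or FPKM, 18 with 1 library left out and 1 with the replicate block, and in 27 more when the 2-fold minimum was dropped. With adjusted p alone, 7 members were called in cold in place of 4 and 36 of 60 differences between stresses in place of 20. These counts of members include the comparisons that are described only. Dropping the fold minimum can only add calls, among all genes too, so the counts are no measure of the members. Over all 13 genes of the refolding term, members included, there were 11 calls in drought in place of 3, 6 in salinity in place of 1 and 5 in waterlogging in place of 2. For the refolding term in salinity, library totals, both FPKM fits and no low-count filter gave 0 calls and separate fits 2; in waterlogging, library totals and both FPKM fits gave 0; in drought, log2(FPKM + 1) gave 1. With 1 library left out, members called ranged over 9 to 10 in heat and 5 to 7 in waterlogging and stayed at 6 in drought, 6 in salinity and 4 in cold, and differences between stresses over 18 to 20. Refolding calls over all 13 genes of the term, members included, were 10 in heat and 9 in cold with every library. With 1 left out they ranged over 10 to 11 in heat, 8 to 9 in cold, 2 to 3 in drought, 0 to 2 in salinity (2 without replicate 1 of waterlogging) and 1 to 3 in waterlogging (1 without replicate 1 of control). With library totals, 5 members were called in salinity and 4 in waterlogging. For LOC105040848, described only, the log2 fold change of waterlogging against salinity was -1.11. It was -1.14 in a fit of these groups alone, -1.10 with the block and -0.95 without replicate 1 of salinity, the last under 2-fold. No test of it is given, as these stresses chose the gene. Replicate numbers shared between groups did not pair the libraries: 12 of 45 same-numbered pairs had a correlation of deviations over 0.1 (range -0.272 to 0.259), and 6 of 18 libraries were closest to their own number. With the replicate block the members called stayed at 6 in drought, salinity and waterlogging, 10 in heat and 4 in cold, and 19 differences between stresses were called. The search of promoters and proteins for motifs, and counts of families by product name, were not run.

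Limits: each group has 3 libraries of pooled seedlings, whole leaves mix cell types, the 5 stress contrasts share the same control libraries, and changes near 2-fold cross it with the scaling. At low levels, as for LOC105038869 in the stresses, counting error is a larger part of the spread.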
